A study of Oryctolagus cuniculus with 24 samples.

Results

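The gene described here is ENSOCUG00000004736, 1 of 17318 genes in the deposited tables and 1 of 1586 that lie on chromosome 13. The tables place it on the minus strand of the rabbit assembly OryCun2.0 and give no symbol, and no start, end or product was available for it in the sources used here. It was followed in 24 RNAseq libraries from the caecum of 12 New Zealand White rabbits, which had been given either ova of the pig whipworm Trichuris suis (TSO) or vehicle (Veh). Rabbits received 2500 ova or vehicle on days 1, 14 and 21. From day 26 they drank fennel tea either plain (Water) or with 0.1% dextran sodium sulphate (DSS) for 5 days, and they were killed on day 35. The 4 groups, Veh Water, Veh DSS, TSO Water and TSO DSS, held 3 rabbits each, and no group carried a genetic alteration. From each rabbit there was 1 library of intestinal epithelial cells (IEC), detached with EDTA, and 1 of lamina propria mononuclear cells (LPMC), released with collagenase and collected on a Ficoll gradient.

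The gene was chosen as one raised by ova, at least on its LPMC values, in TSO Water and TSO DSS against Veh Water. Those 2 comparisons, and that of TSO DSS with TSO Water in LPMC, are therefore given as a description, without a test. The earlier results that singled it out were of LPMC, but the IEC values come from the same rabbits and may have been in view when it was chosen. The tests in IEC are therefore not independent evidence for the gene.

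Trichuris worms live in the caecum, where the larvae hatch from the swallowed ova and burrow into the epithelium. The epithelium is the sheet of absorptive, mucus-forming and sensory cells that faces the gut content, while the lamina propria beneath it holds T cells, B cells, macrophages and other immune cells. DSS damages the epithelium and brings gut content into contact with those immune cells. What the product of ENSOCUG00000004736 does is not stated here, since the identifier had no symbol in the tables and no counterpart in the gene table at hand.

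IEC libraries held 13148507 to 27479782 reads and LPMC libraries 3685522 to 15770377. The smallest was the LPMC library of the third TSO DSS rabbit. Between 9.06% and 46.5% of a library's reads were mitochondrial, with the highest share in the IEC library of the same rabbit. Levels are given as CPM, the reads of the gene per 1000000 reads of all genes in that library. The labels describe the libraries as not strand-specific, so that reads of an overlapping gene on the other strand, or of a near-identical copy, cannot be told apart from those of the gene. In RNA from mixed cells, fewer cells of a type and less RNA per cell cannot be told apart either. With no gene names at hand, the labelled cell types could not be checked against marker genes.

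In IEC the gene was close to the detection limit without ova and was among the more abundant transcripts after them. The 3 Veh Water rabbits had 9, 8 and 0 reads, or 0.328, 0.373 and 0 CPM, and the count of 0 allows up to 3 reads, or 0.228 CPM. In IEC of Veh DSS the rabbits had 22, 28 and 5 reads, or 0.822, 1.44 and 0.350 CPM. The lowest of them lay among the Veh Water values.

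IEC of TSO Water had 2131, 1133 and 3223 reads, or 154, 60.6 and 242 CPM. IEC of TSO DSS had about 10000, 1762 and about 20652 reads, or 642, 76.4 and 1175 CPM. All 6 TSO libraries lay above all 6 vehicle libraries, of which the highest reached 1.44 CPM. In the third TSO DSS rabbit the gene ranked 66 of 17318 by reads and took 0.117% of all reads. In the second TSO DSS rabbit, the lowest in rank among the IEC libraries with TSO, it ranked 2087. In IEC of vehicle rabbits its rank ran from 9294 in the second Veh DSS rabbit to 11485 in the third Veh Water rabbit. The IEC library of the third TSO DSS rabbit was also the one with 46.5% mitochondrial reads, and counted without mitochondrial genes the gene's level there was 2196 CPM.

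**Figure D1:**
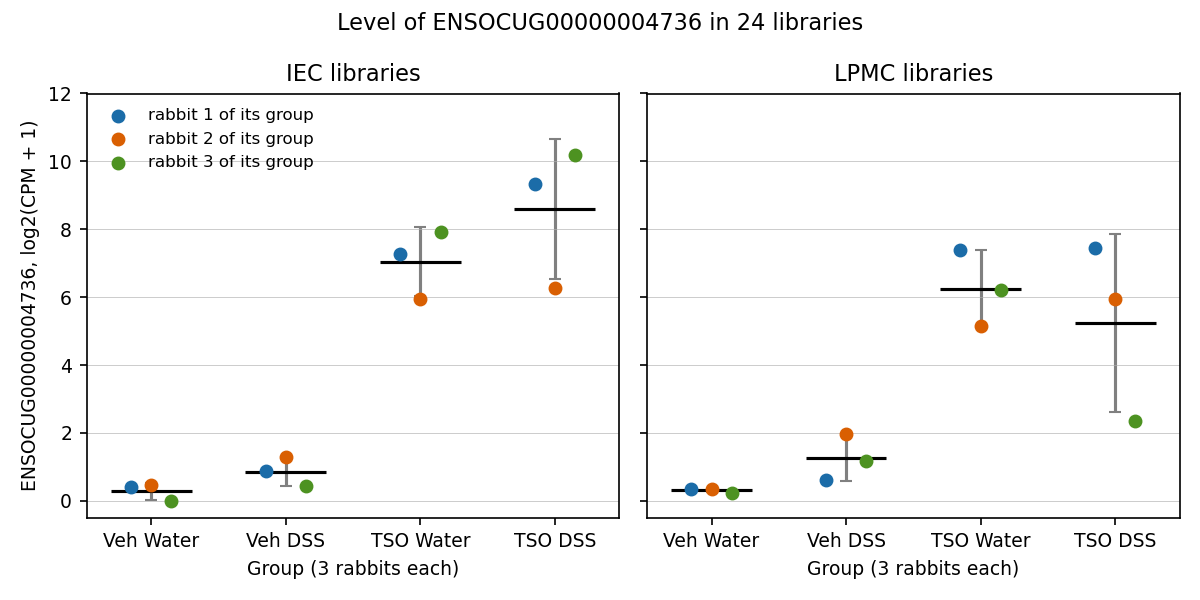
Level of ENSOCUG00000004736 as log2(CPM + 1) in IEC (left) and LPMC (right) by group, with 1 point per rabbit, the group mean as a black line and the SD as a grey bar (n = 3). The TSO libraries of IEC stand between 60.6 and 1175 CPM and those of LPMC between 4.07 and 174 CPM, above all vehicle libraries of the same cell type, the lowest LPMC value within counting error of the highest vehicle one.

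In LPMC the 3 Veh Water rabbits had 4, 3 and 2 reads, or 0.285, 0.267 and 0.179 CPM. LPMC of Veh DSS had 5, 46 and 18 reads, or 0.539, 2.92 and 1.25 CPM. Each of the 3 Veh DSS values exceeded each Veh Water value. In LPMC of TSO Water the level was 168, 34.2 and 73.3 CPM, from 2434, 366 and 926 reads.

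LPMC of TSO DSS had 1438, 841 and 15 reads, which gave 174, 60.8 and 4.07 CPM. The third of these rabbits stood apart. Its 15 reads have a 95% Poisson interval of 8.40 to 24.7 reads, and its library was the smallest of all. Its level of 4.07 CPM (2.28 to 6.71) was above the highest vehicle value of 2.92 CPM (2.14 to 3.89), but these 95% Poisson intervals overlap, so the 2 libraries were not separated beyond counting error. The counts were thus low without ova, with reads assigned to the gene in 11 of the 12 vehicle libraries.

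By group, the mean in IEC was 0.233 ± 0.203 CPM in Veh Water, 0.869 ± 0.545 CPM in Veh DSS, 152 ± 90.5 CPM in TSO Water and 631 ± 549 CPM in TSO DSS (SD, n = 3 each). In LPMC it was 0.244 ± 0.0566, 1.57 ± 1.22, 91.8 ± 68.7 and 79.5 ± 86.3 CPM in the same order. Ranked by median, the groups ran from IEC of TSO DSS and of TSO Water, through LPMC of TSO Water and of TSO DSS, to LPMC of Veh DSS, IEC of Veh DSS, IEC of Veh Water and LPMC of Veh Water. Of the 7 neighbouring pairs in this order, 6 had overlapping values. The exception was the step between LPMC of TSO DSS, with a median of 60.8 CPM, and LPMC of Veh DSS, with 1.25 CPM, though its closest 2 libraries differed by less than counting error.

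The first question was whether the level in IEC differed with ova. Over the 12 IEC libraries, the level was 7.25 higher with TSO than with vehicle on the log2(CPM + 1) scale. In an exact two-sided permutation test within the DSS and Water rabbits, p was 0.005, the smallest that the 400 arrangements allow, and 0.01 after adjustment over the 2 exact tests. Since the IEC values may have been in view when the gene was chosen, this p is not independent evidence. One Veh Water and 1 TSO Water rabbit had been kept in another room than the rest. Without them the difference was 7.55, with an exact p of 0.0167, again the smallest that 120 arrangements allow.

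In IEC of TSO DSS against Veh Water, the gene rose by 11.09 ± 1.26 (standard error) on the log2(value + 1) scale, with an adjusted p of 0.0072 by limma. It had the second largest increase among 11225 genes. Of these genes, 3.47% were called higher, at an adjusted p under 0.05 and a log2 fold change above 1. Without the first TSO DSS rabbit the adjusted p was 0.0507. The difference was 12.34 without the second TSO DSS rabbit, 10.14 without the third and 10.15 without the Veh Water library that had 0 reads. In the last of these fits the gene ranked 4 by increase. The pooled CPM ratio was 2105, with a 95% counting interval of 1314 to 3613. Counting intervals cover counting error only and not the spread between rabbits.

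The gene with a larger increase, ENSOCUG00000001324, also on the minus strand of chromosome 13 and named after its values were seen, did not follow the groups. It had 0 reads in all 3 IEC libraries of Veh Water and 8938 to 11340 in those of TSO DSS, but it also had 0 reads in 1 of the 3 libraries of 4 other groups and a median of 1653 to 13312 reads in each group outside IEC of Veh Water.

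In IEC of TSO Water against Veh Water, the log2 difference was 9.46 ± 0.83 and the pooled CPM ratio 516 (322 to 887). Without the Veh Water library that had 0 reads the log2 difference was 8.55, which ranked 4 of 10985 genes by increase. With no library left out, the difference of 9.46 was the largest of 10985 genes. Its p, 1.44e-05 by limma, was the smallest, but the adjusted p was 0.158. The percentage of genes called higher was 0, and 372 genes had an unadjusted p under 0.05. edgeR's quasi-likelihood test called 0 genes as well and gave the gene an adjusted p of 0.117. Of 15 alternative fits, 3 brought it under 0.05. The adjusted p was 0.00064 on CPM values and 0.0247 with all 12 IEC libraries, each calling 0.0182% of the genes, and 6.1e-42 by DESeq2, which called 0.2%. In the other 12 fits, limma and edgeR, it lay between 0.0695 and 0.9997. The rabbits themselves did not overlap, with at least 60.6 CPM in TSO Water and at most 0.373 CPM in Veh Water.

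Among rabbits that all drank DSS, the IEC level with ova exceeded that without by 9.03 ± 1.16, the largest difference of 9758 genes. It was 10.30 without the second TSO DSS rabbit and 8.09 without the third. With no library left out, the adjusted p was 0.596 by limma, at an unadjusted p of 0.000183, and 0.0102% of the genes were called higher. Of 13 alternatives, only DESeq2 on the recovered reads passed it, giving 9.79 with an adjusted p of 1.05e-21 and calling 0.247% of the genes. The pooled ratio was 635 (488 to 843), and the highest Veh DSS library had 1.44 CPM against 76.4 CPM in the lowest of TSO DSS.

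In LPMC, where the gene was chosen, the same differences are a description. TSO Water exceeded Veh Water by 7.82 and TSO DSS exceeded it by 6.59 on the log2(value + 1) scale, the largest difference of 11175 and of 11059 genes. The genes called higher made up 0.0268% and 0.805%, and nothing is read from the gene's own place in them. The pooled ratios were 399 (210 to 873) and 360 (189 to 788). The TSO DSS difference was 8.14 without the third TSO DSS rabbit and 5.43 without the first, and the TSO Water difference was 7.23 without the first and 8.41 without the second TSO Water rabbit. All comparisons with Veh Water in a cell type share the same 3 Veh Water libraries.

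DSS without ova went with a small difference that did not pass the test in either cell type. In IEC it was 2.07 ± 0.99 on the log2 scale, with an adjusted p of 0.590 by limma and 0.0268% of the genes called higher. The pooled ratio was 3.32 (1.90 to 6.09). Without the Veh Water library that had 0 reads, the log2 difference was 1.09. In LPMC the difference was 2.05 ± 0.66, with an adjusted p of 0.379 by limma, an unadjusted p of 0.0191 and 0.0624% called higher. The Veh Water libraries of this test also entered the choice of the gene, which limits it. The LPMC ratio was 7.07 (3.52 to 16.1), over a total of 9 reads in the Veh Water libraries, and the log2 difference was 1.43 without the second Veh DSS rabbit and 2.64 without the first.

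The next comparison asked whether DSS altered the level among rabbits given ova. In LPMC both groups had entered the choice of the gene, so their difference of −1.11 on the log2 scale is a description. Of 10009 genes, 4.03% were called lower and 0.17% higher. The difference was 0.43 without the third TSO DSS rabbit, −2.28 without the first and −0.52 without the first TSO Water rabbit. In IEC it was 1.55 ± 1.13, with an adjusted p of 0.720 by limma. The 2 groups of IEC overlapped, since the second TSO DSS rabbit, at 76.4 CPM, lay below 2 of the 3 TSO Water rabbits. The interaction of TSO with DSS in IEC was −0.45 ± 1.57 with TMM scaling, at an adjusted p that rounds to 1.0 by limma, and 0.98 ± 1.14 on CPM values, so that its sign differed between these scales. A change with DSS among rabbits given ova was not shown in IEC.

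**Figure D2:**
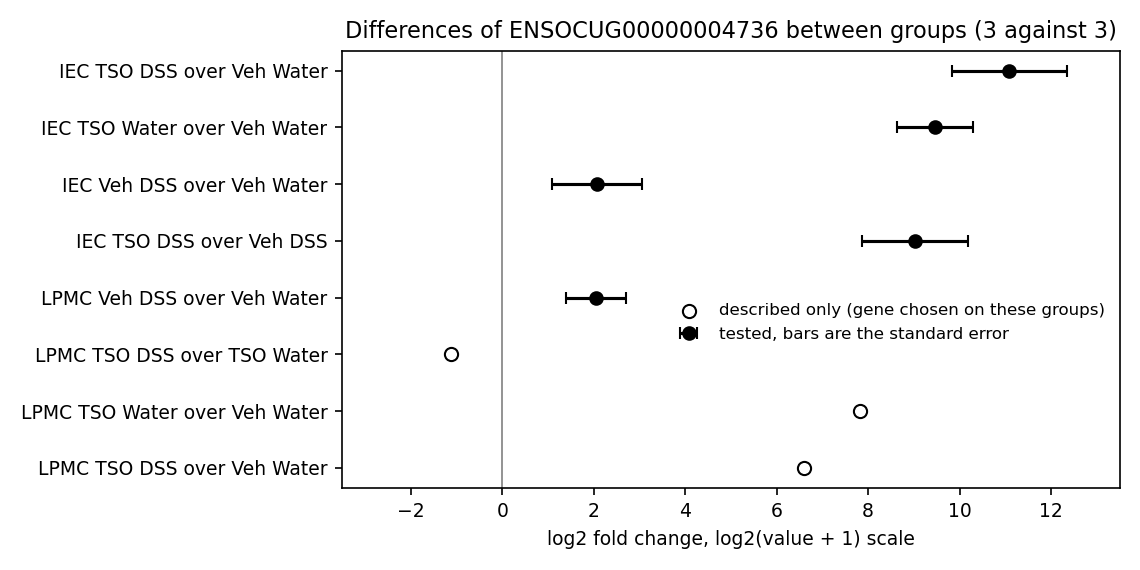
Log2 fold change of ENSOCUG00000004736 on the log2(value + 1) scale in 8 comparisons of 3 against 3 libraries. Filled points are tested comparisons with the standard error as a bar, and open points are the 3 LPMC comparisons of groups on which the gene was chosen. The IEC tests are not independent evidence for the gene. The comparisons of ova with vehicle lie between 6.59 and 11.09, those of DSS alone near 2, and that of DSS within LPMC of ova-treated rabbits at −1.11.

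The ova-treated rabbits differed widely from each other. Among the 6 IEC libraries with TSO, the highest level was 19.4 times the lowest, and among the 6 LPMC libraries 42.7 times. Both figures include the third TSO DSS rabbit, and without it they were 10.6 and 5.08. Within groups, the SD of log2(CPM + 1) was 1.47 in LPMC, where the median gene had 0.313 and 99.2% of 10408 genes varied less. In IEC the SD was 1.17 against a median of 0.347, and 96.9% of 10059 genes varied less. Without the third TSO DSS rabbit the SD was 0.847 in LPMC and 1.22 in IEC, with 92.0% and 97.3% of genes less variable.

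Paired by rabbit, the IEC level was 0.917, 1.77 and 3.30 times the LPMC level in TSO Water. The counting intervals were 0.865 to 0.972, 1.57 to 2.00 and 3.06 to 3.55 and do not cover differences between the preparations. In TSO DSS the ratio was 3.69 (3.50 to 3.91), 1.26 (1.16 to 1.37) and 289 (175 to 516). The third TSO DSS rabbit combined the highest IEC level of all, 1175 CPM, with the lowest LPMC level among the TSO rabbits, 4.07 CPM.

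Across the 6 TSO rabbits, the LPMC and IEC levels had a Pearson r of −0.35 (exact permutation p = 0.522, and 0.522 adjusted over the 2 exact tests) and a Spearman rho of 0.086 (exact p = 0.919). Without TSO DSS rabbits 1 and 3, the farthest from the median, r was 0.64 (n = 4, exact p = 0.375). The negative sign rested on the third TSO DSS rabbit, without which r was 0.77 (n = 5, exact p = 0.108). A relation between the 2 cell preparations was therefore not shown.

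**Figure D3:**
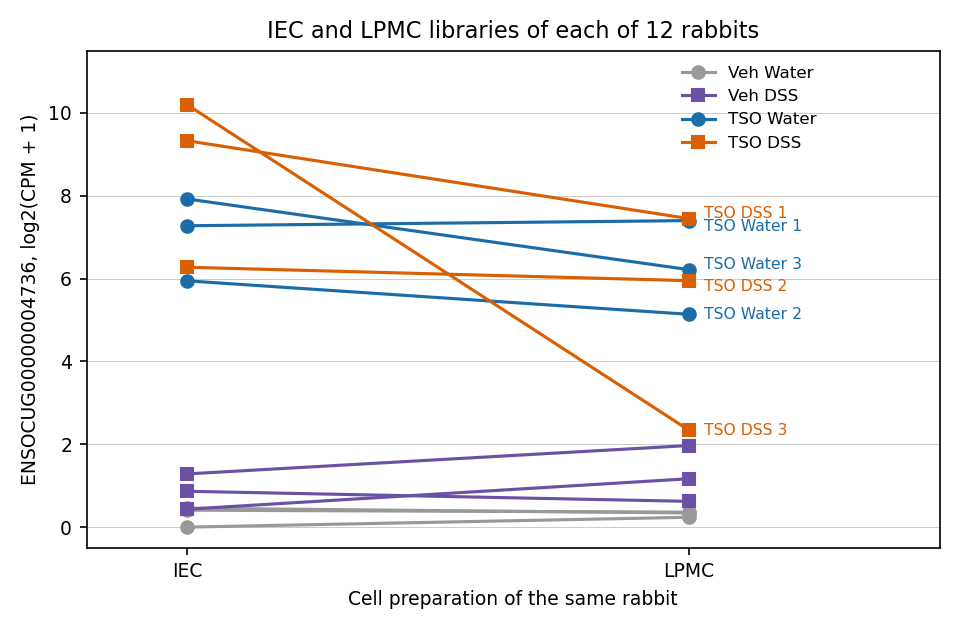
Level of ENSOCUG00000004736 as log2(CPM + 1) in the IEC and the LPMC library of each of 12 rabbits, joined by a line and coloured by group. The lines of 5 TSO rabbits stay above all vehicle rabbits in both preparations by a wide margin, while that of the third TSO DSS rabbit falls from 1175 to 4.07 CPM.

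The LPMC level was also set beside that of genes found mainly in the epithelium. These were 24 genes at 10 CPM or more in IEC, and at least 10-fold higher there than in LPMC, in every Veh Water rabbit. Mitochondrial genes and genes without a read in any LPMC library were left out, and the list was made after the values were seen. In TSO Water the gene's LPMC level was 109%, 56.4% and 30.3% of the IEC level of the same rabbit. The median of the 24 genes was 2.47%, 7.14% and 4.02%, and all 24 lay below the gene in each of these rabbits. In the first and second TSO DSS rabbits the gene stood at 27.1% and 79.6%, above 23 and 24 of the 24 genes, whose medians were 10.4% and 12.9%. The third was the opposite case, with the gene at 0.347% and the 24 genes at a median of 6.71%, and 1 of the 24 below the gene. With 89 genes at least 5-fold higher in IEC, the numbers below the gene were 89, 88 and 82 in TSO Water and 57, 89 and 4 in TSO DSS. Carry-over of epithelial RNA into LPMC was not tested beyond these values.

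**Figure D4:**
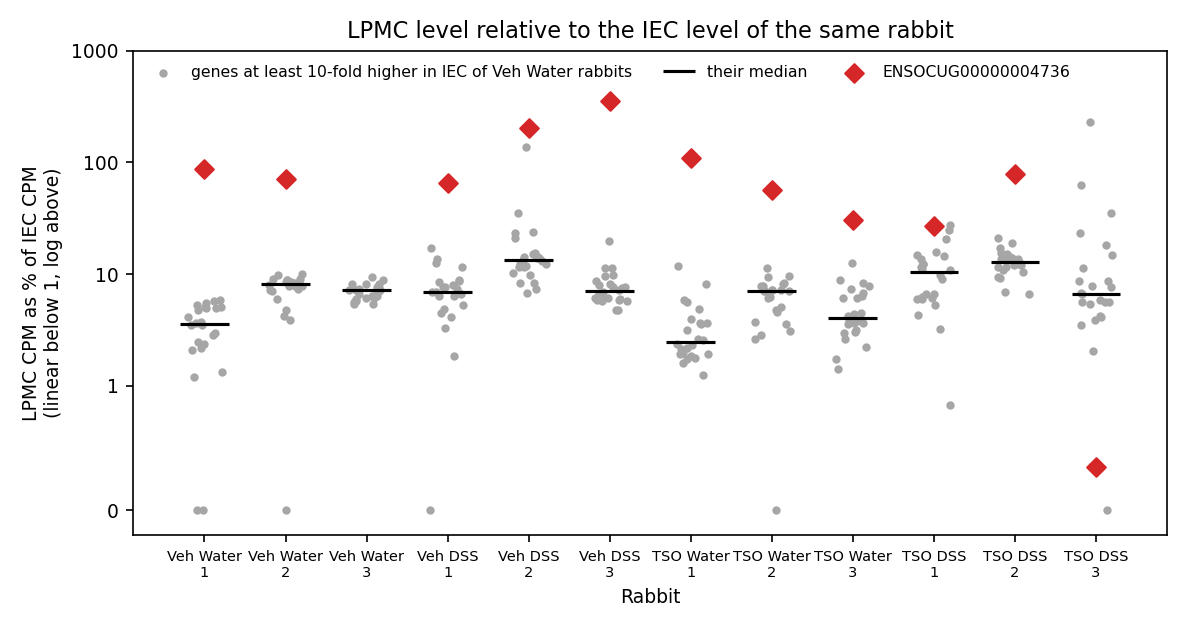
LPMC level as a percentage of the IEC level in each rabbit, on an axis that is linear below 1 and logarithmic above, for ENSOCUG00000004736 (red diamonds) and 24 genes found mainly in IEC (grey points, median as a line). The third Veh Water rabbit has no diamond because its IEC library had 0 reads of the gene. The diamond lies above nearly all grey points in 10 rabbits and at 0.347%, under nearly all of them, in the third TSO DSS rabbit. In the vehicle rabbits the diamond rests on few reads, and the low place of the grey points in Veh Water follows from how these genes were chosen.

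Genes that were low in Veh Water and detected under TSO were counted in both cell types, as a description, since the gene was chosen for this pattern in LPMC. In LPMC, 6325 genes were at 0.5 CPM or less in every Veh Water library. Of these, 5 were at 1 CPM or more in every TSO Water library, 9 in every TSO DSS library and 2 in both groups. The other one of these 2 was ENSOCUG00000017694 on chromosome 19, named after its values were seen, with 1.22 to 23.3 CPM under TSO, but 1.01 to 7.41 CPM in Veh DSS. In IEC, 6697 genes were as low in Veh Water, and 3, 40 and 3 met the same criteria. ENSOCUG00000012752 on chromosome 4 had 1.30 to 4.81 CPM under TSO and 0.560 to 7.76 CPM in Veh DSS. ENSOCUG00000022526 on chromosome 18 had 1.34 to 81.0 CPM under TSO and 0.350 to 1.74 CPM in Veh DSS. Both were also named after their values were seen. The lowest value of ENSOCUG00000004736 under TSO was 4.07 CPM in LPMC and 60.6 CPM in IEC.

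The genes of chromosome 13, ENSOCUG00000004736 included, were set beside all genes, since positions on the chromosome were not at hand. In IEC of TSO DSS against Veh Water, 41 of 1106 chromosome 13 genes were called higher and 1 lower, which is 3.71% higher against the 3.47% of all genes. Their median log2 difference was 0.01, compared with −0.02 over all genes. In LPMC of TSO DSS, 6 of 1086 were higher and 48 lower, or 0.552% and 4.42%, where all genes gave 0.805% and 4.92%.

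The 2 genes with the highest r were not the same in the 2 cell types. This difference rests on where the lists were cut, since the highest r in LPMC, 0.887, 0.880 and 0.878, lay close together. Over the 12 LPMC libraries, the highest Pearson r of log2(CPM + 1) were 0.89 for ENSOCUG00000025677 on chromosome 9 and 0.88 for ENSOCUG00000002369 on chromosome 3. ENSOCUG00000025677 had 1.43 to 2.05 CPM in LPMC of Veh Water, 6.81 to 15.3 CPM in TSO Water and 4.88 to 11.9 CPM in TSO DSS. For ENSOCUG00000002369 the same groups had 28.0 to 41.3, 50.5 to 108 and 61.6 to 125 CPM. In IEC the latter did not run with the gene, at r = −0.22, whereas ENSOCUG00000025677 had r = 0.63.

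Over the 12 IEC libraries, the highest were r = 0.91 for ENSOCUG00000013956, which is on the minus strand of chromosome 13 as well, and r = 0.89 for ENSOCUG00000022477 on chromosome 19. ENSOCUG00000013956 had 0.456 to 1.31 CPM in IEC of Veh Water, 3.90 to 4.41 CPM in TSO Water and 6.11 to 22.5 CPM in TSO DSS, and its r in LPMC was 0.61. ENSOCUG00000022477 had 3.60 to 21.2 CPM in IEC of Veh Water, 26.0 to 61.0 CPM in TSO Water and 30.2 to 124 CPM in TSO DSS. It also ran with the gene in LPMC, at r = 0.85, with 0.356 to 1.87 CPM in Veh Water and 13.6 to 21.7 CPM under TSO. An r above 0.9 was found for 0 of 10408 genes in LPMC and 1 of 10059 in IEC. These correlations are descriptions, because the libraries fall into low and high groups and share depth and preparation.

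**Figure D5:**
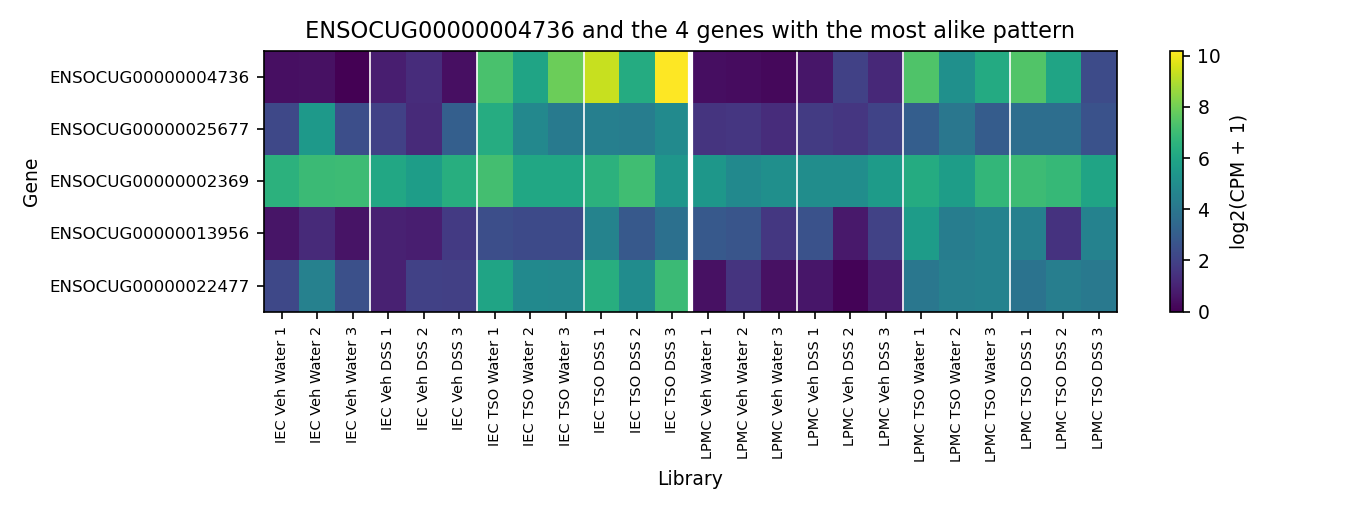
Level as log2(CPM + 1), by colour, of ENSOCUG00000004736 and of the 4 genes most alike, ENSOCUG00000025677 and ENSOCUG00000002369 from LPMC and ENSOCUG00000013956 and ENSOCUG00000022477 from IEC, in 24 libraries. Of the 5 genes, ENSOCUG00000004736 has the lowest group medians in IEC of vehicle rabbits and the highest level, 1175 CPM, and the other 4 have reads in all vehicle libraries.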

How the data were processed

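RNA of IEC and LPMC was sequenced from 12 rabbits, with both preparations from each rabbit. Replicates of a group are 3 different rabbits, and groups were taken from the labels. Per the labels, single-end reads of polyA RNA were processed with FastQC and the build OryCun2.0. The paper's methods give paired reads instead. The authors annotated the Ensembl identifiers with BetterBunny. The aligner, the counter and the gene models that were counted are not given in the sources used here. The authors deposited 6 tables, each setting 1 treated group of 1 cell type beside Veh Water and holding a normalized signal per gene and library, with 4 significant digits, and columns of log2 ratios, p-values and FDR that were not used. Each column was a multiple of whole reads. Dividing by the value of 1 read recovered whole reads, with 100% of values under 1000 within 0.1 of a whole number, so that high counts are approximate. The room of each rabbit was read from the study's supplementary metadata.

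The member and lists were chosen with earlier results of these data known. Tests used limma 3.58.1 (trend) in R 4.3.3 on log2(signal + 1) of the genes that the authors marked as present. Groups that share no table were fitted together on recovered reads with TMM scaling, for genes at 1 CPM or more in at least 3 libraries. P-values were Benjamini-Hochberg adjusted over all genes. Alternatives were edgeR 4.0.16 (quasi-likelihood), DESeq2 1.42.0, CPM scaling, a pseudocount of 0.1, no filter, all 12 libraries, the replicate number as a block, room A only, and leaving out each replicate. The interaction, the IEC comparison of TSO DSS with TSO Water the spread without the third TSO DSS rabbit and the lists of epithelial genes were added after the data were seen. Exact tests and Poisson and binomial intervals used scipy 1.17.1 in Python 3.11.15. On simulated counts of 9608 to 10086 genes, 200 of them changed 4-fold, limma recovered 153 in IEC of TSO DSS, 162 in IEC of TSO Water, 134 in IEC of Veh DSS and 163 in LPMC of Veh DSS, each against Veh Water. It recovered 113 in IEC of TSO DSS against Veh DSS and 124 in LPMC of TSO DSS against TSO Water. The latter was fixed as a test but is given as a description because both groups entered the choice of the gene. Between 8 and 13 unchanged genes were called in each simulation. The simulated counts were TMM-scaled and filtered at 1 CPM, unlike the tests against Veh Water, so the recovery is not that of those tests. Named genes were ENSOCUG00000004736 and the 2 with the highest r with it in each cell type, among genes at 1 CPM or more in 3 libraries. A table of 38822 gene names of mOryCun1.1 matched 0 of the 17318 identifiers, so no name, position or sequence is given.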

Additional observations from a re-analysis of the deposited data

How the results depend on the processing

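Of the alternatives run, counting once those that left the same libraries, 13 of 14 kept the call of IEC TSO DSS over Veh Water, whose log2 difference ranged from 10.14 to 12.34 when 1 library was left out, with an adjusted p of 0.0507 without the first TSO DSS rabbit. IEC TSO Water over Veh Water passed the threshold with scaling by library size (6.76), all 12 libraries (9.49) and DESeq2 (9.43). IEC TSO DSS over Veh DSS passed with DESeq2 (9.79). The LPMC differences that chose the gene moved to 5.94 (TSO Water) and 4.93 (TSO DSS) with scaling by library size, whose log2(CPM + 1) compresses the low values. LPMC TSO DSS over TSO Water ranged from −2.28 to 0.43 and the correlation of LPMC with IEC from −0.67 to 0.77 when 1 library or rabbit was left out, and both changed sign without the third TSO DSS rabbit. Neither IEC Veh DSS nor LPMC Veh DSS over Veh Water crossed the threshold in 14 such alternatives each. The exact test of IEC TSO over Veh kept its side in all 16, at 6.85 to 8.86.

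Replicate numbers did not pair the libraries, since they are different rabbits and their deviations correlated between −0.49 and 0.43. With the replicate block, the adjusted p was 0.0469 for IEC TSO DSS over Veh Water, at a difference of 11.09, and 0.9997 for IEC TSO Water over Veh Water, at 9.46. Depth limits the vehicle levels, which rest on 0 to 46 reads a library, so that the folds depend on few reads and on the pseudocount. Room A only could not alter IEC TSO DSS over Veh DSS, since all these rabbits were in that room.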
